A study of Rattus norvegicus with 20 samples.

Results

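Ankrd1, Fhl2 and Csrp3 are muscle genes that respond to mechanical load, and they were followed here through rear-leg muscle of diabetic and normal rats with and without vanadyl sulfate. They were chosen by gene symbol, as every probe set whose single annotated symbol was one of the 3. The choice was made because their signals were known to be high in untreated diabetic muscle, so the differences between diabetic and normal muscle and between treated and untreated diabetic muscle are given as a description, with no test. Each gene had 1 probe set, and the 3 genes stood among 4737 genes that the array names with a single symbol. The probe sets were U50736_s_at for Ankrd1, rc_AA891527_at for Fhl2 and X81193_at for Csrp3. All 3 passed the filter on low signals (above the array's 40th percentile on at least 5 arrays), Ankrd1 and Csrp3 on all 20 arrays. Fhl2 was above it on 6 arrays, 4 of them diabetic, so it passed only through the group in which it is high.

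Polyadenylated RNA was measured on 20 one-colour Affymetrix arrays, with 5 arrays in each of 4 groups: diabetic rats given vanadyl sulfate (treated diabetic), untreated diabetic rats (diabetic), normal rats given vanadyl sulfate (treated normal) and untreated normal rats (normal). Vanadyl sulfate is a vanadium salt with insulin-like actions. All arrays came from rat rear-leg skeletal muscle. The labels do not give the strain, sex or age of the rats, the way diabetes was produced, which rear-leg muscle was taken, or the dose. Nothing in the labels says that replicates came from separate animals, so the spread between arrays may be partly technical. Values are MAS5 signals, a brightness in arbitrary units that is compared between arrays for 1 probe set and never between genes.

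The sarcomere is anchored at the Z-disc, and titin, its elastic protein, carries proteins that sense strain. Ankrd1, the cardiac ankyrin repeat protein, binds the elastic part of titin and also enters the nucleus as a transcriptional cofactor. In rodent skeletal muscle its message is low at rest and rises with stretch, injury and denervation. Fhl2, a LIM-domain adaptor most abundant in heart, binds titin and metabolic enzymes and acts as a cofactor in the nucleus. Csrp3, the muscle LIM protein, lies at the Z-disc, is richer in slow than in fast fibres and is a cofactor of the MyoD family.

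Acta1 and Ckm, the actin and creatine kinase of skeletal muscle, lay at or above the 99.85th percentile of signal on all 20 arrays. The median signal per array ran from 377 to 648. The mean correlation of an array with the other 19 was 0.783 for treated diabetic replicate 5 and between 0.866 and 0.912 for the other 19 arrays. On that array the 3' Gapdh control gave 7421 units, against 81302 to 376169 on the other 19 arrays. The labels name no batch or scan date.

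RefSeq promoter sequence was at hand for Fhl2, with 2 annotated starts, and both are shown because a reader can set the muscle motifs of this promoter beside the signals of the gene. Ankrd1 and Csrp3 are named only. Each run has 250 bases before the start and 50 after it, from the GRCr8 build, minus strand, written 5′ to 3′. The first is chr9:52954491-52954790 and the second chr9:52923277-52923576. Capitals mark matches to CATTCC, to the MEF2 site and to the CArG box.

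Fhl2, first start: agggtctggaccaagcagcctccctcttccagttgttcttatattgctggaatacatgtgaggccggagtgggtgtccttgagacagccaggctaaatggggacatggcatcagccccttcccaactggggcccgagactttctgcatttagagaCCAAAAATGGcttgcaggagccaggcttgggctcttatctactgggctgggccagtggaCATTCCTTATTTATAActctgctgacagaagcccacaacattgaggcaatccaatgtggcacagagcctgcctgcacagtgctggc
Fhl2, second start: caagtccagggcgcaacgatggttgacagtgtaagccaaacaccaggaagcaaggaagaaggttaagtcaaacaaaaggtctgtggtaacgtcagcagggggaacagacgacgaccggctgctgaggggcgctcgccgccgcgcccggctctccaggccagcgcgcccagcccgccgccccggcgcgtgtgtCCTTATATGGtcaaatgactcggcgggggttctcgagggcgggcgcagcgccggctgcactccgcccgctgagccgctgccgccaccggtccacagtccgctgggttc

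CATTCC is the core read by TEAD factors, MEF2 sites are read by the MEF2 factors of muscle, and CArG boxes by serum response factor. Both strands were searched. The first start held CATTCC at positions -36 to -31 from the start and, directly after it, a MEF2 site at -30 to -21 (TTATTTATAA), which also overlaps the letters TATAA at -25 to -21. The letters TATAA on the other strand lie at -56 to -52 in the second, inside its CArG box. The first held a CArG box at -95 to -86, and the second start held one at -58 to -49. Of 33469 promoters of the same length, 14.2% held CATTCC, 3.29% a MEF2 site, 1.64% a CArG box and 26.2% TATAA. The 6-base E-box CANNTG, read by the MyoD family, occurred in both and in 72.1% of all promoters. These are matches of letters, and binding was not measured.

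Ankrd1 had signals of 16285, 18198, 17292, 16634 and 3383 in diabetic replicates 1 to 5, against 1478, 709, 1205, 913 and 835 in normal replicates 1 to 5. Diabetic replicates 1 to 4 lay close together and replicate 5 lay far below them, but still above every normal array. In treated diabetic replicates 1 to 5 it had 1788, 1533, 566, 4784 and 995 units. Treated diabetic replicate 4 was the highest of that group and exceeded diabetic replicate 5, so these groups overlapped through those 2 arrays alone. Treated normal replicates 1 to 5 had 787, 1686, 1305, 2056 and 3918 units, with replicate 5 the highest. The group medians ran in the order diabetic (16634), treated normal (1686), treated diabetic (1533) and normal (913), and the ranges of the last 3 overlapped.

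Csrp3 followed a similar outline, with diabetic replicates 1 to 4 high and replicate 5 below them. Its signals were 15754, 17495, 15684, 17459 and 4754 in diabetic replicates 1 to 5, against 3668, 4096, 8509, 5850 and 2599 in normal replicates 1 to 5. Replicates 1 to 4 of the diabetic group lay above all 15 arrays of the other groups, and replicate 5 lay inside the normal range. In treated diabetic muscle Csrp3 had 5708, 1947, 6197, 9868 and 978 units, with replicate 5 lowest and the largest SD of the 4 groups on the log2 scale (1.36). In treated normal muscle it had 4136, 3214, 2768, 3430 and 6836 units, all within the range of normal muscle. By median the order was diabetic (15754), treated diabetic (5708), normal (4096) and treated normal (3430), and the last 3 were not separated by their spread.

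Fhl2 was dim, and its pattern differed from those of the other two. Its signals were 1302, 1072, 952, 1218 and 227 in diabetic replicates 1 to 5, against 617, 204, 249, 139 and 289 in normal replicates 1 to 5. As with the other 2 genes, diabetic replicates 1 to 4 were higher than all 15 arrays of the other groups. Replicate 5 fell among normal arrays, as for Csrp3 but not for Ankrd1. Treated diabetic replicates 1 to 5 had 62.5, 45.0, 110, 46.7 and 105 units, all below every diabetic and every normal array. Treated normal replicate 1 had 741 units and replicates 2 to 5 had 48.6, 90.8, 82.4 and 114. The median order was diabetic (1072), normal (249), treated normal (90.8) and treated diabetic (62.5). The lower end of this order is uncertain, since the signal lay under the array's 40th percentile on 5 of 5 treated diabetic, 1 of 5 diabetic, 4 of 5 treated normal and 4 of 5 normal arrays, and no detection calls were used here.

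**Figure D1:**
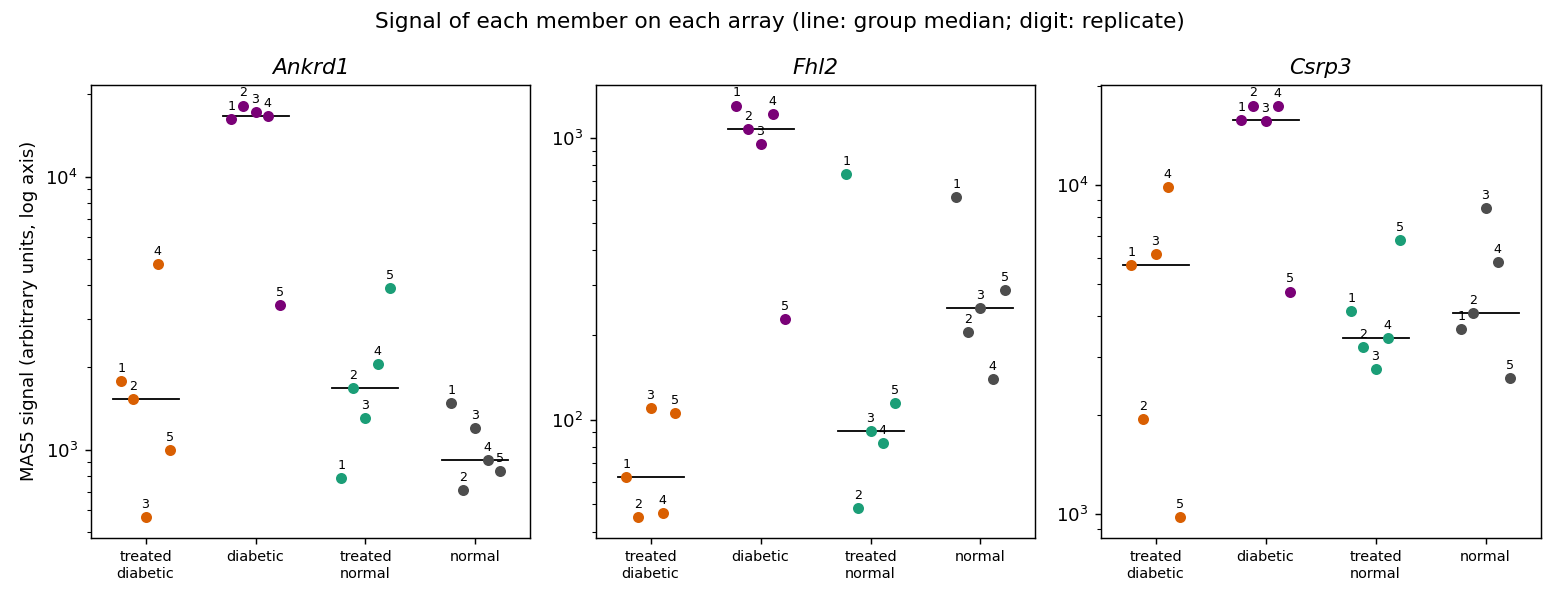
MAS5 signal (arbitrary units, log axis) of Ankrd1, Fhl2 and Csrp3 on each of the 20 arrays, with the replicate number beside each point and a line at each group median. In all 3 panels diabetic replicates 1 to 4 sit above the 15 arrays of the other groups, and diabetic replicate 5 lies apart from them (3383 units for Ankrd1, 227 for Fhl2 and 4754 for Csrp3).

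On the log2(signal + 16) scale Ankrd1 averaged 13.60 ± 1.04 in diabetic and 9.98 ± 0.42 in normal muscle (SD, n = 5 each), a difference of 3.62 ± 0.53 (SE of the limma fit). Csrp3 averaged 13.66 ± 0.81 and 12.16 ± 0.65 in diabetic and normal muscle, with a difference of 1.50 ± 0.53. Fhl2 averaged 9.71 ± 1.01 and 8.13 ± 0.75 in the same order, with a difference of 1.58 ± 0.57. In this comparison the groups did not overlap for Ankrd1, and 3.33% of the 6027 tested probe sets were higher in diabetic muscle without overlap and 1.76% lower. For Csrp3 and for Fhl2, 4 of 5 diabetic arrays exceeded all normal arrays. Without diabetic replicate 5 the differences were 4.08, 1.86 and 2.03 for Ankrd1, Csrp3 and Fhl2. The rule by which the genes were chosen used this contrast, so these counts are not read against the background.

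Between treated and untreated diabetic muscle the differences were -3.03 ± 0.53 for Ankrd1, -3.29 ± 0.57 for Fhl2 and -1.81 ± 0.53 for Csrp3 (SE). These share the diabetic arrays with the comparison above, so a low or high diabetic array moves both sets of values. For Fhl2 the 5 treated diabetic arrays lay below all 5 diabetic arrays, where 2.07% of tested probe sets were lower without overlap and 2.37% higher. For Ankrd1 this held for 4 of 5 treated diabetic arrays and for Csrp3 for 2 of 5. When every signal under its array's 40th percentile was set to that percentile, the Fhl2 difference became -1.51 ± 0.32, a step that raised all 5 treated diabetic arrays and diabetic replicate 5. With a pseudocount of 200 in place of 16 it was -1.96. Without treated diabetic replicate 5 the Csrp3 difference was -1.34.

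Set against normal muscle, treated diabetic muscle had a difference of 0.58 ± 0.53 for Ankrd1, -0.31 ± 0.53 for Csrp3 and -1.72 ± 0.57 for Fhl2. The Ankrd1 and Csrp3 values overlapped between these groups. Fhl2 was lower in all 5 treated diabetic arrays than in any normal array, where 0.282% of tested probe sets were lower without overlap and 0.398% higher. Its difference was -0.29 ± 0.32 once signals under the 40th percentile were set to it, so the size of the Fhl2 difference lies among dim signals. Without treated diabetic replicate 5 the Csrp3 difference was 0.17, the other sign, and leaving out other single arrays moved it between -0.66 and -0.08. The Ankrd1 difference was 0.17 without treated diabetic replicate 4 and 0.93 without treated diabetic replicate 3.

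The treated normal arrays took no part in the choice of the genes, and 2 comparisons that use them were tested for Ankrd1 and Csrp3, although the normal and treated diabetic arrays in them did take part. Treated normal muscle averaged 10.74 ± 0.84 and normal muscle 9.98 ± 0.42 for Ankrd1 (SD, n = 5 each), a log2 difference of 0.76 with a 95% interval from -0.34 to 1.87 (limma adjusted p = 0.646). The Ankrd1 difference was 0.46 without treated normal replicate 5. Csrp3 differed by -0.23, with an interval from -1.33 to 0.86 (adjusted p = 0.905), and by -0.44 to -0.01 when single arrays were left out, the last without normal replicate 3. Neither gene passed limma's test, in a comparison where 0.0664% of tested probe sets did and where the median of all tested probe sets was itself 0.179. The Ankrd1 interval reaches a 3.66-fold rise, so a rise of up to that size lies within the error of the fit. That error uses 1 spread per probe set, shared by all 20 arrays. Fhl2 is given with no test, since 8 of the 10 arrays were under the 40th percentile. Its difference was -0.94 ± 0.57 (SE), -1.53 without treated normal replicate 1 and 0.18 once signals under the percentile were set to it.

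Between treated diabetic and treated normal muscle the difference was -0.18 for Ankrd1, with a 95% interval from -1.29 to 0.93 (adjusted p = 0.895). For Csrp3 it was -0.07, with an interval from -1.17 to 1.03 (adjusted p = 0.956). Both changed sign when single arrays were left out, with Ankrd1 between -0.60 (without treated diabetic replicate 4) and 0.16 (without treated diabetic replicate 3) and Csrp3 between -0.43 and 0.40 (without treated diabetic replicates 4 and 5 in turn). Fhl2, under the 40th percentile on 9 of these 10 arrays and so not tested, differed by -0.77 ± 0.57 (SE), by -0.18 without treated normal replicate 1 and by -0.48 once low signals were set to the percentile. No probe set on the array passed limma's adjusted test here (0% of 6027), while 1076 had an unadjusted p below 0.05. The groups did not overlap for 1.21% of probe sets that were higher in treated diabetic muscle and 2.01% that were lower, and they overlapped for all 3 genes.

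**Figure D2:**
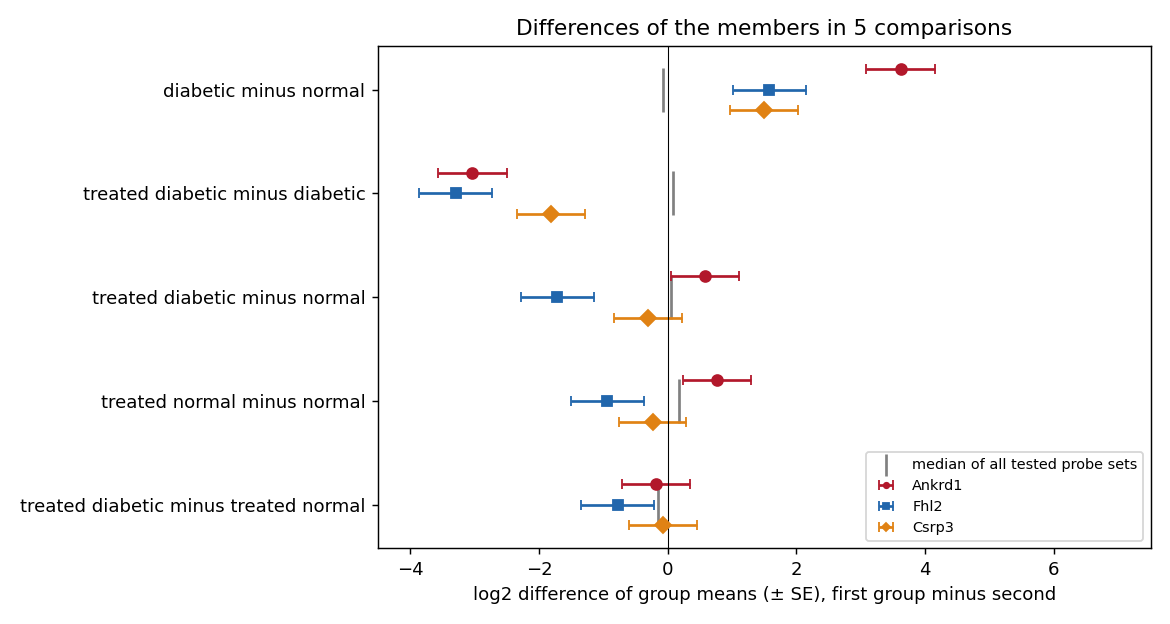
Log2 differences of group means (first group minus second, bars ± SE of the limma fit) for the 3 genes in 5 comparisons, with a grey mark at the median of all 6027 tested probe sets. The genes stand at 1.50 to 3.62 in diabetic minus normal and at -3.29 to -1.81 in treated diabetic minus diabetic, and between -0.94 and 0.76 in the comparisons with treated normal muscle.

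The 3 genes were alike in which diabetic arrays were high. In the treated groups Ankrd1 and Csrp3 shared their highest arrays, treated diabetic replicate 4 and treated normal replicate 5, and Fhl2 did not. Diabetic replicate 5 stood apart on the low side for each of them, which was true of 1.24% of tested probe sets for that array, and between 0.332% and 1.13% for each of the other 4 diabetic arrays. Over the 20 arrays Pearson's r was 0.76 between Ankrd1 and Csrp3, 0.59 between Fhl2 and Csrp3 and 0.56 between Ankrd1 and Fhl2, given as a description with no test, since the arrays share their groups. Over the 15 arrays outside the diabetic group the same values were 0.32, 0.03 and -0.47. With group means removed over 20 arrays, r was 0.56 between Ankrd1 and Csrp3, 0.17 between Fhl2 and Csrp3 and 0.03 between Ankrd1 and Fhl2. Leaving out diabetic replicate 5 made them 0.41, -0.08 and -0.39 in that order. Treated diabetic replicate 4 was among the lowest of its group for Fhl2. Treated normal replicate 1 was the lowest of its group for Ankrd1 and the highest for Fhl2.

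**Figure D3:**
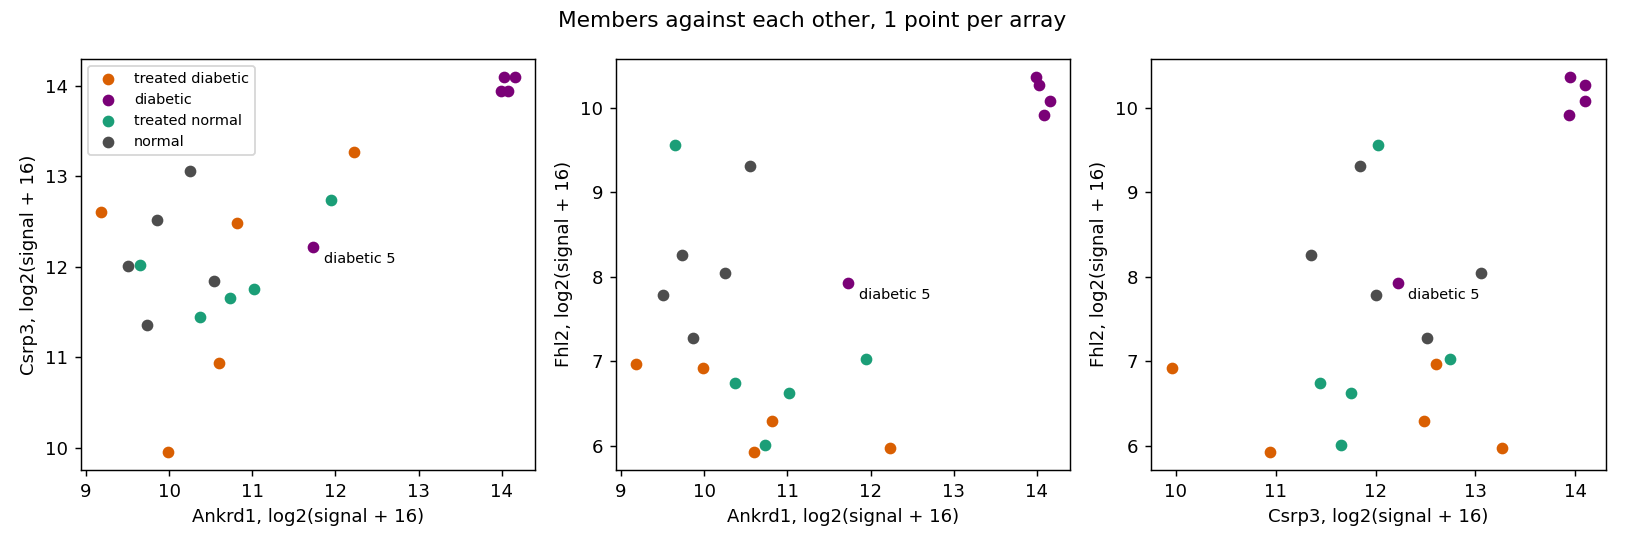
Log2(signal + 16) of the 3 genes against each other, 1 point per array, coloured by group. Diabetic replicates 1 to 4 form a tight cluster at the upper right of each panel, diabetic replicate 5 lies with the other groups, and the 15 arrays outside the diabetic group show r of 0.32, -0.47 and 0.03 from left to right.

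Ankrd1 was most like Lyz2, the macrophage lysozyme, over the 20 arrays (r = 0.86 among 3581 other genes). The matrix protein osteopontin, Spp1 (0.84), and the CaM kinase II inhibitor Camk2n1 (0.84) came next. The embryonic myosin Myh3 (0.81) and the NF-kappa B inhibitor Nfkbia (0.79) followed. Outside the diabetic group r fell to 0.36 for Lyz2, 0.21 for Spp1, 0.37 for Camk2n1, -0.08 for Myh3 and 0.48 for Nfkbia. The values over 20 arrays include the difference between diabetic and other muscle, which the choice of Ankrd1 used. Spp1 had 331 units in diabetic replicate 5 and 1449 to 2773 in the other 4 diabetic arrays, and Myh3 had 5022 units there against a diabetic median of 28876. Lyz2 was also lowest in that array (5914 units), but diabetic replicates 1 and 3 had 32231 and 34588 units of it and replicates 2 and 4 had 14604 and 13575. Ankrd1 did not follow that split, since its 4 high arrays ran only from 16285 to 18198.

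Once group means were removed, the genes nearest to Ankrd1 were the cell-cycle kinase Wee1 (r = 0.61), Eif4ebp1 (0.59) and Megf6 (0.59). With group means kept, their r was 0.36, 0.78 and 0.12. Eif4ebp1, the translation repressor that insulin signalling inactivates, kept r = 0.81 over the 15 arrays outside the diabetic group. Its highest arrays there were treated normal replicate 5 (29091 units) and treated diabetic replicate 4 (23918 units), the arrays with the highest Ankrd1 in each of those groups. The other 13 arrays had 5342 to 11847 units. In diabetic replicate 5, where Ankrd1 was low for its group, Eif4ebp1 had 24412 units and was not low.

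Csrp3 was most like Vtcn1, an immune checkpoint ligand, over the 20 arrays (r = 0.88), and r was 0.86 with group means removed and 0.74 over the 15 arrays outside the diabetic group. Lyz2 (0.77), Rpl7a (0.76), Ankrd1 (0.76) and Rpl18 (0.75) followed, of which Rpl7a and Rpl18 are proteins of the large ribosomal subunit. With group means removed, the receptor kinase Epha8 (0.73, but 0.18 with group means kept) and Myl2 (0.72) came next after Vtcn1. Myl2, the regulatory light chain of slow muscle and heart, had 1601 units in treated diabetic replicate 5 and 25395 in diabetic replicate 5, the lowest of each group and the same arrays in which Csrp3 was lowest. The r of Csrp3 with Vtcn1 was 0.84 and with Myl2 0.62 without treated diabetic replicate 5.

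Fhl2 was most like Esm1, a proteoglycan of endothelium (r = 0.80), the chemokine Ccl2 (0.77) and the small GTPase Rrad (0.76). The slow troponin Tnni1 (0.76) and the lipid droplet protein Plin2 (0.70) followed. Outside the diabetic group, where Fhl2 was mostly under the 40th percentile, r was 0.45, 0.33, 0.49, 0.64 and 0.33 in the same order. Rrad, a calcium channel regulator first described in muscle of people with type 2 diabetes, had 2035 units in diabetic replicate 5 against a diabetic median of 12234. Tnni1 had 27379 units in treated normal replicate 1 and 4913 to 11324 in replicates 2 to 5, and 13821 units in diabetic replicate 5 and 37040 to 53873 in the other diabetic arrays. In treated diabetic replicate 1, Tnni1 had 41164 units while Fhl2 had 62.5. With group means removed, Casz1 (0.72), Klc1 (0.69) and Cbfa2t2 (0.66) were nearest. With group means kept, their r was 0.46, 0.49 and 0.18. These likenesses are over arrays that share groups and RNA quality, and say nothing of function.

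**Figure D4:**
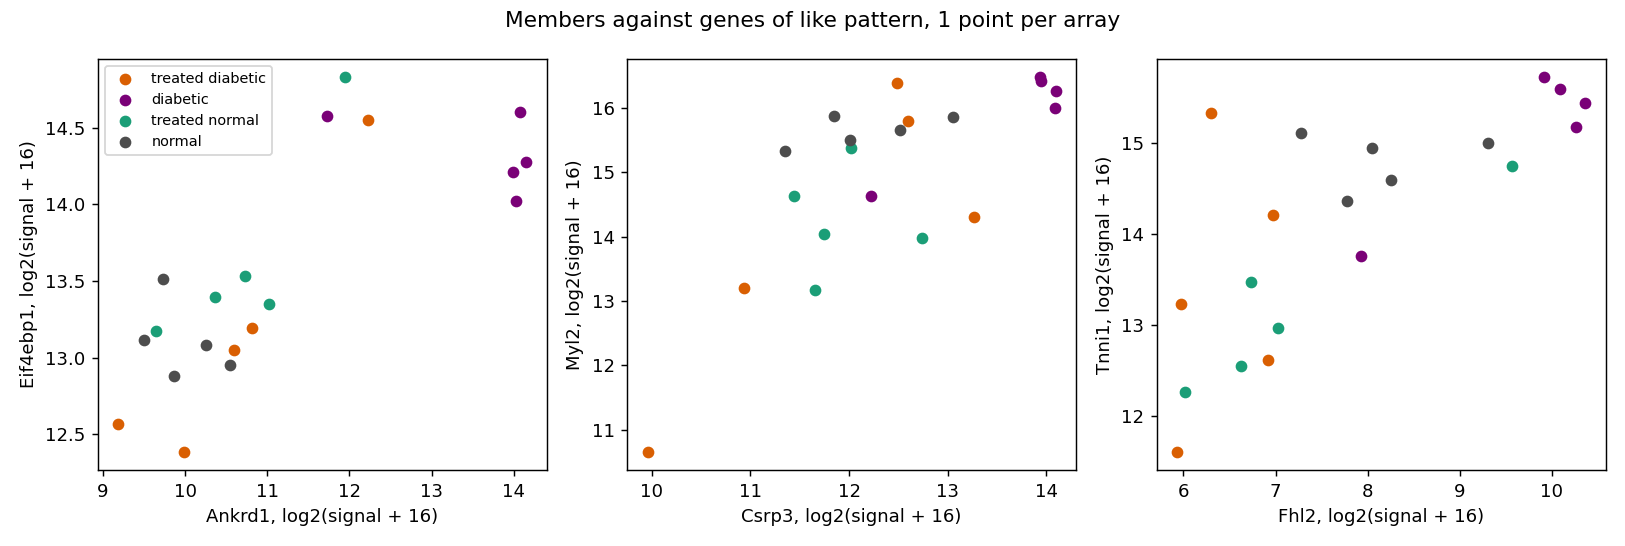
Log2(signal + 16) of Ankrd1 against Eif4ebp1, Csrp3 against Myl2 and Fhl2 against Tnni1, 1 point per array, coloured by group. Treated normal replicate 5 and treated diabetic replicate 4 are the points outside the diabetic group with the highest Ankrd1 and Eif4ebp1, and in the centre panel treated diabetic replicate 5 is at the lower left.

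Related muscle genes were taken from 7 lists, chosen with earlier results of these data known. Of 170 listed genes 103 were measured and passed the filter. The list of LIM and Z-disc genes, which holds relatives such as the alpha-actinins, filamin C and the PDZ-LIM proteins, had 17 measured genes. In diabetic against normal muscle 0 of them rose or fell by limma at the brightest probe set of each gene, the median log2 difference was 0.13, and that of all tested genes was -0.04. A dimmer probe set of Lims1, a LIM-domain adaptor of integrin adhesions, was lower (-1.74, adjusted p = 0.0327), while its other probe sets gave -1.19 and -0.34 and did not pass. The call rate over the array was 1.83% (0.564% lower). Its smallest p-values belonged to filamin C, Flnc (0.70 ± 0.23, SE, adjusted p = 0.122), and Actn4 (-0.68, adjusted p = 0.250). Treated diabetic against diabetic muscle likewise gave 0 of 17, with a median of -0.04 against 0.10 for all genes and a call rate of 0.498% (0.0498% higher and 0.448% lower). The smallest p-values there belonged to the Z-disc crosslinker Actn2 (-0.84, adjusted p = 0.227) and to Csrp1 (-1.37, adjusted p = 0.267), a relative of Csrp3.

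Titin-linked and costamere genes (17 measured) likewise had 0 past the test in either comparison. The laminin receptor subunit Itga7 differed by 1.05 ± 0.29 between diabetic and normal muscle (adjusted p = 0.0627), and the intermediate filament protein vimentin, Vim, by 0.67 (adjusted p = 0.232). Other Itga7 probe sets gave 0.34 and 0.79 there, and neither passed. Nebulin, Neb, the ruler of the thin filament, differed by 0.71 between treated diabetic and diabetic muscle (adjusted p = 0.125). The probe set of titin, Ttn, differed by 1.80 ± 0.77 in the same comparison (adjusted p = 0.257). It was dim, with a mean log2 signal of 9.61 in treated diabetic and 7.80 in diabetic muscle. Among 18 targets of serum response factor and YAP with TEAD, 0 passed. The early growth response genes Egr2 (1.40, adjusted p = 0.0600) and Egr1 (1.10, adjusted p = 0.0866) had the smallest p in diabetic against normal muscle, and the list's median was 0.35. Other Egr1 probe sets gave 0.82, 0.30 and -0.47 there, and none passed. Cardiac actin, Actc1, differed by -2.62 ± 0.76 between treated diabetic and diabetic muscle (adjusted p = 0.122), and beta-actin, Actb, by -1.81 (adjusted p = 0.188).

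Of 12 measured cardiac stress genes, 3 rose in diabetic against normal muscle and 0 fell, against 1.26% called higher over the array. They were Spp1 (3.08 ± 0.51, adjusted p = 0.00374), Nfkbia (1.74 ± 0.27, adjusted p = 0.00257) and the growth regulator Myc (1.29 ± 0.25, adjusted p = 0.0141). The lists were chosen with earlier results of these data known, so list counts are not read against the share over the array. A second Nfkbia probe set gave 1.43 and did not pass (adjusted p = 0.141), and a second Myc probe set gave 2.38 and did (adjusted p = 0.0417). Timp1, an inhibitor of metalloproteinases, passed at a dimmer probe set (1.98, adjusted p = 0.0462) and not at its brightest (0.79, adjusted p = 0.197). Spp1 fell in treated diabetic against diabetic muscle (-2.53, adjusted p = 0.0281) and the other 11 did not pass. Over the array 0.448% of tested probe sets were called lower there. Of 20 regeneration and denervation genes, Myh3 rose in diabetic against normal muscle (2.57 ± 0.52, adjusted p = 0.0155) and fell in treated diabetic against diabetic muscle (-2.34, adjusted p = 0.0471). The other 19 did not pass in either comparison. A second Myh3 probe set gave 4.14 and -4.63 in these comparisons and passed in both (limma adjusted p = 0.00557 and 0.00503). Another gave 0.34 and -0.46 and passed in neither (limma adjusted p = 0.675 and 0.546).

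Slow fibre genes (10 measured) had 0 calls in diabetic against normal muscle and a median of 0.21. The smallest p there belonged to the slow tropomyosin Tpm3 (1.16, adjusted p = 0.0519) and the small heat shock protein Hspb6 (-0.79, adjusted p = 0.286). Other Tpm3 probe sets gave -0.83 and -0.002, and neither passed. Tpm3 fell in treated diabetic against diabetic muscle (-1.36 ± 0.30, adjusted p = 0.0471), 9 did not pass, and the median was -1.04. Over the array 0.448% of tested probe sets were called lower there. Other Tpm3 probe sets gave 1.63 and -0.28 in that comparison, and neither passed. The list's median was also low in treated normal against normal (-0.91) and in treated diabetic against normal muscle (-0.74). It was 0.11 between treated diabetic and treated normal muscle. Medians of all tested genes were 0.17, 0.09 and -0.10 in the same order. Fast fibre genes (15 measured) had 0 calls in diabetic against normal and in treated diabetic against diabetic muscle, with medians of -0.43 and 0.68. Their medians in the other comparisons were -0.60, 0.18 and 0.73, in the order given for the slow genes. The calcium buffer parvalbumin, Pvalb, differed by -0.55 between diabetic and normal muscle (adjusted p = 0.441) and the fast troponin T, Tnnt3, by -0.56 (adjusted p = 0.455). Between treated diabetic and diabetic muscle the fast myosin Myh1 differed by 1.04 (adjusted p = 0.182) and Pvalb by 0.93 (adjusted p = 0.221). In treated normal against normal muscle, treated diabetic against normal muscle and treated diabetic against treated normal muscle, 0 of the 103 list genes passed limma's test.

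The 4 list genes called in diabetic against normal muscle became 2 without diabetic replicate 1 or 3, 0 without both, 7 without normal replicate 1 and 8 without treated diabetic replicate 5. The 3 called in treated diabetic against diabetic muscle became 0 when treated diabetic replicate 3, or any 1 of diabetic replicates 1 to 4, was left out. They became 1 without normal replicate 1 or 5, without treated diabetic replicate 1, 2 or 5, or without any 1 treated normal replicate.

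**Figure D5:**
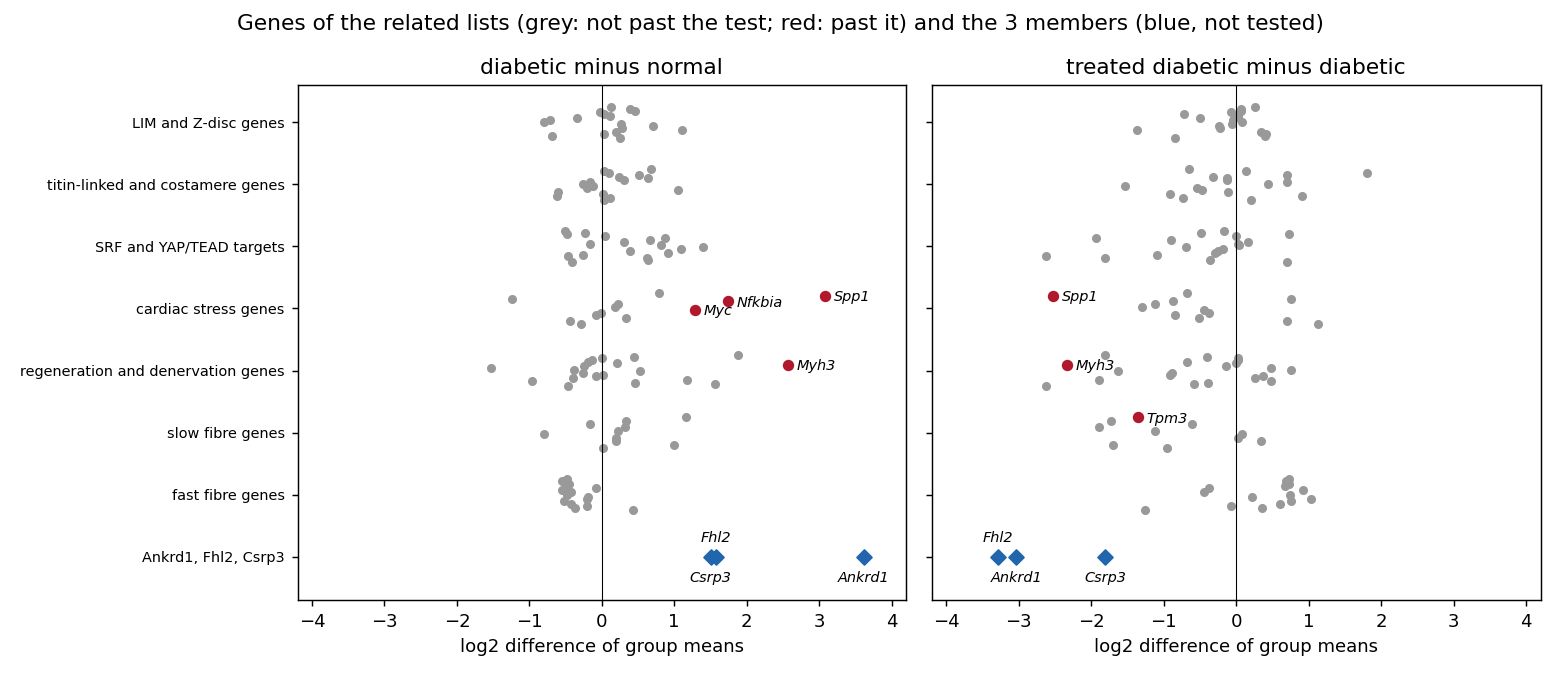
Log2 differences of the genes of the 7 related lists in diabetic minus normal (left) and treated diabetic minus diabetic (right), red where past limma's adjusted threshold of 0.05 and grey otherwise, with Ankrd1, Fhl2 and Csrp3 in blue (not tested). Spp1, Nfkbia, Myc and Myh3 are red on the left and Spp1, Myh3 and Tpm3 on the right.

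Fewer cells of a type and less RNA per cell cannot be told apart in whole muscle, so markers of other cells are set beside the genes. The summed signal of 8 measured immune markers (of 11 listed, 0 at zero) ran from 17100 to 84626 on diabetic and from 7206 to 12902 on normal arrays. It was 84626 and 81383 in diabetic replicates 1 and 3, 25273 and 27258 in replicates 2 and 4 and 17100 in replicate 5. Bright markers weigh most in this sum. Lyz2 ran from 5914 to 34588 units on diabetic and from 999 to 4389 on normal arrays. Cd74 ran from 4085 to 32786 and from 2209 to 3950 in the same order. Ptprc, a dimmer marker of the list, did not rise, with medians of 430 in diabetic and 468 in normal muscle. Without diabetic replicates 1 and 3 the difference between diabetic and normal muscle was 3.32 ± 0.63 for Ankrd1, 1.31 ± 0.64 for Csrp3 and 1.29 ± 0.68 for Fhl2 (SE). The 7 measured adipocyte markers (of 8, 0 at zero) summed to between 32422 and 53202 on diabetic and between 15215 and 26860 on normal arrays. Of the adipocyte markers, Fabp4 had medians of 14529 in diabetic and 5362 in normal muscle, while Lep had 6538 and 7119. The part of the immune and adipocyte markers in the results was not tested.

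All 3 genes are abundant in heart, and 6 heart markers were examined. The natriuretic peptide Nppb lay under the 40th percentile on all 20 arrays, and Nppa was above it on 8 of 20, with 105 to 261 units on diabetic and 156 to 934 on normal arrays. Tnnt2 was higher in diabetic muscle, with 403 to 6279 units on diabetic and 195 to 1061 on normal arrays. Its difference was 1.89 ± 0.65 (SE) and did not pass (limma adjusted p = 0.138). Tnni3 had medians of 490 in diabetic and 279 in normal muscle, and Myl7 had 1086 and 1211. The 6 summed to between 22667 and 64530 on diabetic and between 28402 and 66396 on normal arrays, mostly through Myh6 (20498 to 56628 on diabetic and 26221 to 61620 on normal arrays), whose sequence is so close to that of the slow myosin Myh7 that their probe sets may share signal. The sum was lowest among diabetic arrays in replicate 5 (22667).

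The 3'/5' ratio of a control transcript rises as RNA degrades. The log2 beta-actin ratio in diabetic replicates 1 to 5 was 2.305, 0.93, 2.52, 1.05 and 1.97, and the Gapdh ratio was 0.90, 0.31, 1.11, 0.21 and 0.51. Normal replicate 1, normal replicate 3 and treated diabetic replicate 1 had Gapdh ratios of 2.90, 2.91 and 3.94. Fits with the ratios as covariates, or without these 3 arrays, were among 12 alternative settings. Over the 12, the difference between diabetic and normal muscle ran from 3.32 to 4.08 for Ankrd1. It ran from 1.31 to 1.86 for Csrp3 and from 1.15 to 2.03 for Fhl2. The number of called probe sets changed, as given below. RNA quality as a cause was not tested.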

How the data were processed

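RNA from 20 muscle samples was hybridised to one-colour Affymetrix arrays. The deposited intensity values are MAS5 signals on a linear scale, and MAS5 is named per the submitters' processing notes. With 2% of values trimmed from both ends, array means ran from 2503 to 2506. Of 8799 probe sets, 59 controls were left out. log2(signal + 16) was fitted in limma 3.58.1 (R 4.3.3) over all 20 arrays for the 6027 probe sets above their array's 40th percentile on at least 5 arrays. P-values were two-sided, Benjamini-Hochberg adjusted over all 6027, with a threshold of 0.05, and the fit was tested on simulated data. The 3 genes and the lists were chosen with earlier results of these data known. A fold change on this scale understates dim genes. The number of arrays limits the precision.

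Named list genes were those called (up to 4 with the smallest p) or, with none called, the 2 with the smallest p. Further probe sets of list genes, Lims1, Timp1 and single markers of other cells were named after their values were seen. Likeness used the 5 highest r over 20 arrays and the 3 highest after removing group means. A gene with several probe sets was represented by its brightest on average. Of the probe sets, 7018 had 1 symbol, 308 several and 1473 were not listed in the platform annotation. Alternatives were the pseudocount, the filter, quantile normalization, the groups fitted, 3'/5' ratios, a replicate block and leaving out arrays.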

Additional observations from a re-analysis of the deposited data

Results flagged for a closer look

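In 4 of 12 sets of 5 arrays (3 genes in 4 groups), 1 array lay further from the rest than Dixon's 95% limit allows. Chance does this in about 1 in 20 sets, and the 3 genes share arrays. Diabetic replicate 5 was the low array for all 3 genes. Its log2 signal was 11.73 for Ankrd1, with the nearest diabetic array at 13.99. For Csrp3 it was 12.22, with the nearest at 13.94. For Fhl2 it was 7.92, with the nearest at 9.92. The remaining value was high: treated normal replicate 1 had 9.56 for Fhl2, with the nearest treated normal array at 7.02. Diabetic replicate 5 stood apart on the high side for 1.86% of tested probe sets and on the low side for 1.24%.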

How the results depend on the processing

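Of 480 values of the 3 genes under alternatives, 468 were counted as unchanged. In the comparisons with treated normal muscle this meant the same direction and side of the threshold, and in the others a move of less than 1 SD. By that rule the Csrp3 value of 0.17 between treated diabetic and normal muscle, without treated diabetic replicate 5, was no exception, although its sign changed. The exceptions were as follows. Between treated diabetic and treated normal muscle, quantile normalization gave 0.046 for Ankrd1 and 0.12 for Csrp3, against negative values otherwise. Csrp3 was 0.40 there without diabetic replicate 5 and treated diabetic replicate 5. Leaving out 1 array, Csrp3 was 0.16 without treated diabetic replicate 2, 0.40 without treated diabetic replicate 5 and 0.13 without treated normal replicate 5. The lowest values were -0.43 for Csrp3 and -0.60 for Ankrd1, both without treated diabetic replicate 4. Ankrd1 was 0.16 without treated diabetic replicate 3 and 0.12 without treated normal replicate 5. Fhl2 was -1.96 between treated diabetic and diabetic muscle with a pseudocount of 200. With signals below the 40th percentile set to it, Fhl2 was -1.51 there, -0.29 between treated diabetic and normal and 0.18 between treated normal and normal muscle. The cause was not tested.

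Probe sets called in diabetic against normal muscle numbered 110. They became 62 with no filter, 71 with only the 2 groups fitted, 282 when the Gapdh 3'/5' ratio entered as a covariate, 32 when the beta-actin ratio did too, 464 when the 3 high-Gapdh arrays were dropped and 3 without diabetic replicates 1 and 3. In treated diabetic against diabetic muscle 30 became 50 with a pseudocount of 200, 19 with no filter, 11 with only the 2 groups, 1 without diabetic replicates 1 and 3 and 49 with low signals set to the percentile. In treated diabetic against normal muscle 0 became 359 when those 3 arrays were dropped. In treated normal against normal muscle 4 became 2 with a pseudocount of 1, 0 with no filter, quantile normalization or only the 2 groups, 2 without the high-Gapdh arrays and 1 without diabetic replicates 1 and 3. In treated diabetic against treated normal muscle 0 became 2 without the high-Gapdh arrays and 12 with low signals set to the percentile.

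The replicate block gave 0 called probe sets in treated normal against normal and 16 in treated diabetic against treated normal muscle. Same-numbered arrays correlated at -0.281 to 0.616 over 30 pairs, 11 of them over 0.1, and 1 to 3 of 5 arrays in each pair of groups correlated best with their own number, so the numbers were not taken to pair the arrays.

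List genes called in diabetic against normal muscle were 4, and became 7 without diabetic replicate 5 and treated diabetic replicate 5 and 0 without diabetic replicates 1 and 3. The 3 called in treated diabetic against diabetic muscle became 1 with no filter, 0 with quantile normalization, 1 with both ratios and 0 without diabetic replicates 1 and 3. Leaving out 1 array at a time gave 24 to 247, 10 to 59, 0 to 3, 0 to 6 and 0 to 109 called probe sets in the comparisons in the order above, 2 to 8 and 0 to 4 list genes in the first 2, and 0 to 2 in treated diabetic against treated normal muscle. Leaving out diabetic replicates 1 and 3 or diabetic and treated diabetic replicate 5, and setting low signals to the percentile, were chosen after seeing the data.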
